A study of Mus musculus with 24 samples.

Results

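Genes of vascular smooth muscle and pericytes were followed in the dental mesenchyme of mouse first mandibular molars by bulk RNA sequencing. The set holds 10 of the 56748 genes in the read-count table and was listed by name: Acta2, Tagln, Myh11, Cnn1 and Mylk encode proteins of the contractile apparatus, and Rgs5, Notch3, Cspg4, Pdgfrb and Kcnj8 are genes used to mark pericytes. They were read to set the vessel coverage of the tooth germ beside the contractile state that cells take on in culture. There were 24 libraries in 8 groups of 3. All came from ICR mouse embryos, for which no transgene or drug is named, at the cap stage (embryonic day 13) or the bell stage (embryonic day 15). At each stage the mesenchyme was taken from the undivided germ (Cap-W and Bell-W, as the labels spell them), from its lingual part (Cap-L, Bell-L) or from its buccal part (Cap-B, Bell-B), the germ having been split with a needle. In the remaining groups, Cap-L+2D and Cap-B+2D, the parts of cap-stage germs were kept in vitro for 2 days before the mesenchyme was isolated. Mesenchyme was freed from epithelium with dispase, and no step that removes vessels, blood or neighbouring muscle is described. The study's methods speak both of triplicates and of biological replicates, in differing numbers, and do not say which libraries of a group came from separate animals or litters, so p-values measure the spread between these libraries, which may be technical.

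Mural cells wrap the endothelial tube. Pericytes lie on capillaries and are recruited by endothelial platelet-derived growth factor B acting on Pdgfrb and held by Jagged signals to Notch3, whereas smooth muscle cells ring larger vessels and contract through smooth muscle actin and myosin. The contractile genes are driven by serum response factor with its myocardin-family partners, are switched on in fibroblast-like cells that spread on a stiff surface (myofibroblasts), and Acta2 is also made for a time by young skeletal muscle cells.

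The contractile genes lie in GRCm39, the build of the deposited table, at chr19:34218490-34232990 (Acta2, minus strand), chr9:45840917-45847356 (Tagln, minus), chr16:14012399-14109236 (Myh11, minus), chr9:22010512-22020926 (Cnn1, plus) and chr16:34565580-34822790 (Mylk, plus). Reads were counted over all exons of a gene without regard to strand, and reads falling on more than 1 gene were not assigned. Of the exon bases of Tagln, 67.9% overlap Pcsk7 or Gm48529, against 6.85% for Mylk, 6.03% for Notch3 and none for the others, so the level of Tagln is a lower estimate. The coding sequence of Acta2 was 82.6% identical to that of the cardiac and early skeletal actin Actc1, 85.4% to Acta1 and 84.2% to the enteric smooth muscle actin Actg2, but the longest run of identical transcript sequence was 23 bases with Actc1 and 29 with each of the others.

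The start-site windows of the most and of a weakly expressed contractile gene are shown because Acta2 and Tagln moved together after culture. All 5 contractile genes rose on both sides, and a link between motif and change was not tested. Each runs from 250 bases before to 50 after the start of the gene's canonical transcript in GENCODE M39, on GRCm39 and read along the minus strand. Acta2 is at chr19:34232941-34233240 and Tagln at chr9:45847355-45847654. Capitals mark a CATTCC motif on either strand (here as GGAATG), the core bound by TEAD factors, and a CArG box, the element bound by serum response factor. A CArG box was counted only as an exact match to CCWWWWWWGG, where W is A or T. Boxes with a mismatch, or outside the window, were not searched for.
Acta2: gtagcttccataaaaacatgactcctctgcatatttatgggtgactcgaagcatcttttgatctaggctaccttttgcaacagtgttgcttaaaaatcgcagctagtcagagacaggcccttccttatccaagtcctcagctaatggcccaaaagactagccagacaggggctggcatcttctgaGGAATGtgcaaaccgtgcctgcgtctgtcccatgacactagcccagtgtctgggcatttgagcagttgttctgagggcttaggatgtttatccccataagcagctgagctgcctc
Tagln: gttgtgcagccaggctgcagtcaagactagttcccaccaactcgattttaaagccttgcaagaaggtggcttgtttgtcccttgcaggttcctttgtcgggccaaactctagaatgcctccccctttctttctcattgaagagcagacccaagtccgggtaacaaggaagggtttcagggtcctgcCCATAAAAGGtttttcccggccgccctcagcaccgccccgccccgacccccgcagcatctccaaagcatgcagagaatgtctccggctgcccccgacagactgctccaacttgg
The Acta2 window held CATTCC at positions -65 to -60 from the start site and no exact CArG match, which does not show that Acta2 lacks such an element. The Tagln window held 1 CArG box, CCATAAAAGG, at -64 to -55. An exact CArG match was present in 1 of 5 contractile and 0 of 5 pericyte windows and in 1.54% of 21770 gene windows of the same length. CATTCC was present in 2 of 5 contractile windows (Acta2 and Mylk), in 0 of 5 pericyte windows and in 14.0% of all windows.

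The libraries held 20581720 to 39266497 counted fragments. Levels are counts per 1000000 after TMM scaling over the 24 libraries (CPM), and a difference was called at an adjusted p under 0.05 (edgeR quasi-likelihood test, Benjamini-Hochberg over all genes) with an absolute log2 fold change over 0.5. All 10 genes passed the filter on low counts in every comparison. The 10 were chosen with earlier results of these data known. Their counts beside the share of all genes are therefore a description. Replicates of the divided parts were close, but those of the undivided germs were far apart (chi-square per degree of freedom of 7.89 to 161 between pairs, against 1.32 to 9.84 in the parts), and the third Bell-W library summed to 2097 CPM over 10 epithelial markers against 481 in the lowest Bell-W library. Dental mesenchyme markers summed to between 2188 and 4258 CPM over 8 genes in every library. A bulk level cannot tell fewer cells of a type from less RNA per cell.

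**Figure D1:**
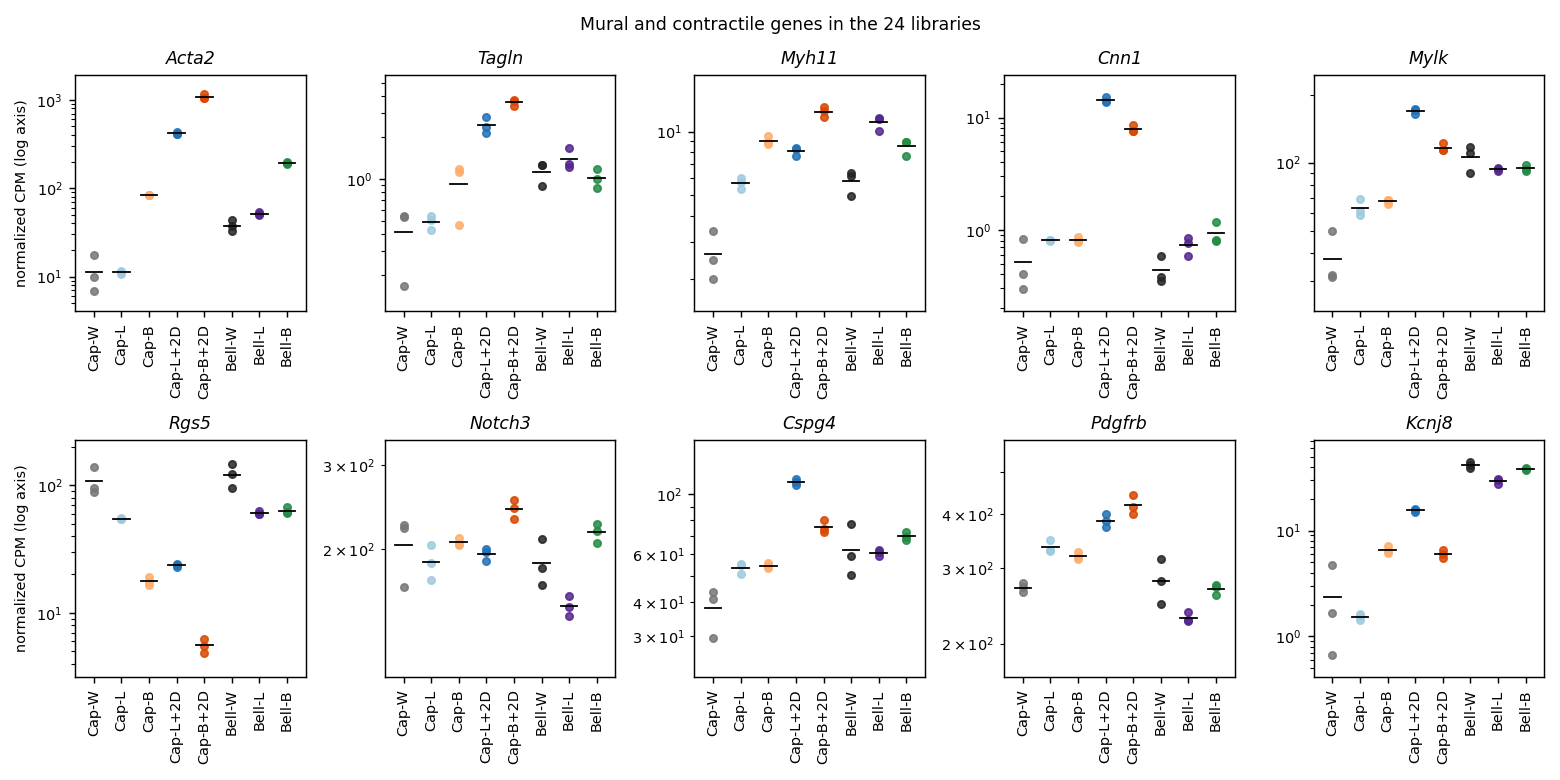
Normalized CPM (log axis, scaled separately in each panel) of the 10 genes in the 8 groups; each point is a library and each bar the mean of 3. Acta2 spans group means from 11.1 CPM in Cap-L to 1087 CPM in Cap-B+2D, while Notch3 spans 152 to 243 CPM.

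Acta2, the smooth muscle actin, changed more across the groups than any other gene of the set, by 97.8-fold between the lowest and the highest group mean. In the lingual part its libraries stood at 11.2, 11.6 and 10.6 CPM when fresh and at 415, 410.2 and 435 CPM after 2 days in vitro. In the buccal part they stood at 83.9, 82.9 and 82.9 CPM when fresh and at 1061, 1051 and 1150.3 CPM after culture. No library of one state overlapped the other on either side. The log2 fold change was 5.24 (SE 0.0558, edgeR adjusted p = 1.58e-28) on the lingual side and 3.69 (SE 0.0386, adjusted p = 4.62e-37) on the buccal side.

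Cnn1, Tagln and Mylk rose on both sides as well. Cnn1 (calponin, an actin-binding protein of differentiated smooth muscle) was at 0.787, 0.807 and 0.812 CPM in Cap-L and at 13.8, 14.0 and 15.3 CPM in Cap-L+2D, a log2 fold change of 4.16 (SE 0.126, edgeR adjusted p = 1.63e-19). On the buccal side Cnn1 went from 0.857, 0.795 and 0.778 CPM to 7.60, 7.63 and 8.57 CPM (log2 fold change 3.27, SE 0.154, adjusted p = 7.96e-19). No cultured library overlapped a fresh one, and the fresh parts held 19 to 29 counts of the gene in a library. Tagln (transgelin, which bundles actin) rose by 2.31 on the log2 scale in the lingual part (SE 0.219, adjusted p = 1.19e-09) and by 1.96 in the buccal part (SE 0.198, adjusted p = 1.93e-10). Its libraries ran from 0.424 to 1.17 CPM when fresh and from 2.16 to 3.76 CPM after culture, without overlap within a side. Mylk, the kinase that switches on myosin, rose by 1.44 (SE 0.0507, adjusted p = 3.51e-18) in the lingual and 0.77 (SE 0.0387, adjusted p = 5.04e-18) in the buccal part, from means of 63.0 and 67.5 CPM to 169 and 116.5 CPM. Myh11, the smooth muscle myosin heavy chain and the most restricted marker of that lineage, had the smallest fold of the 5. It went from a mean of 5.70 ± 0.343 to 8.10 ± 0.396 CPM (SD, n = 3) in the lingual part, a log2 fold change of 0.51 (adjusted p = 3.06e-05) that fell under 0.5 in 3 of the 6 fits that left out 1 library, and from 9.05 ± 0.380 to 12.4 ± 0.636 CPM in the buccal part, where 0.44 (adjusted p = 9.43e-06) was not called.

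After culture, then, 8 of the 10 genes were called in the lingual part (7 higher and 1 lower) against 35.4% of all 21425 genes tested, and 5 in the buccal part (4 higher and 1 lower) against 34.5% of 21992. All 5 contractile genes were called higher in the lingual part and 4 of 5 in the buccal part, while 19.6% and 17.9% of all genes tested were called higher and 15.9% and 16.6% lower. The median log2 fold change of the 5 contractile genes was 2.31 and 1.96, beside -0.03 and -0.02 over all genes tested.

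**Figure D2:**
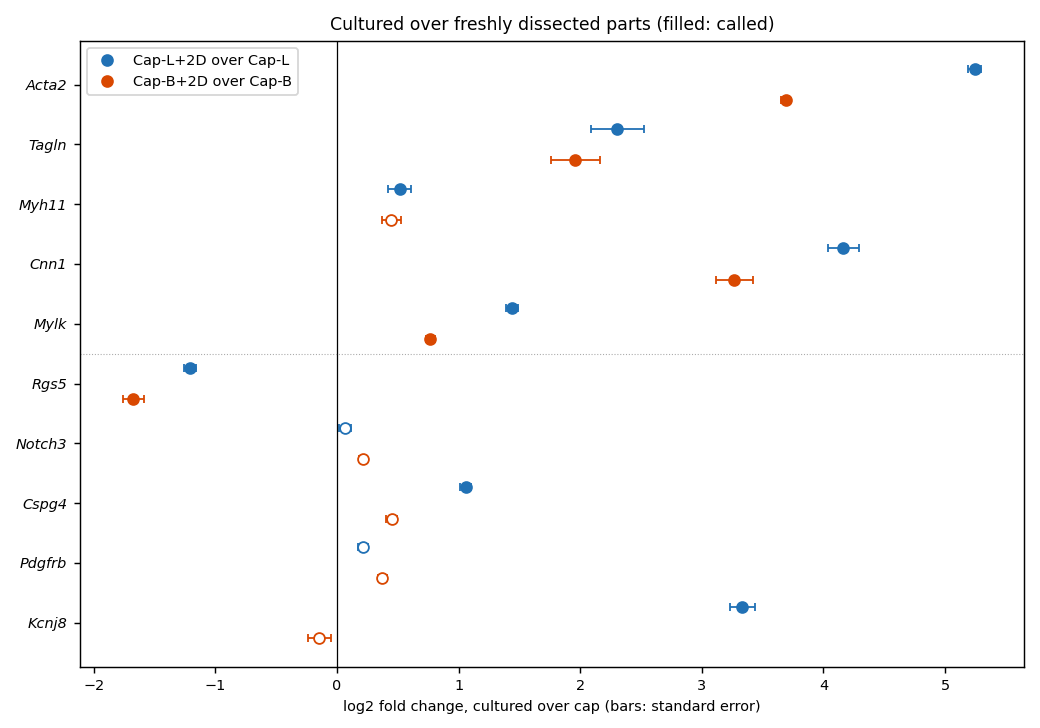
Log2 fold change of cultured over fresh cap-stage parts for each gene, lingual in blue and buccal in orange; bars are standard errors and filled points are called differences. The contractile genes are above the dotted line and all lie to the right of 0, with Acta2 at 5.24 and 3.69; below it Rgs5 lies at -1.21 and -1.68 and Kcnj8 at 3.33 and -0.15.

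Further genes of the contractile programme were read from lists that were chosen with earlier results of these data known. Their counts are therefore a description. Of 12 other smooth muscle contractile genes, 9 were called higher and 0 lower in the lingual part and 7 higher and 1 lower in the buccal part. Actg2 was at 0.494 to 0.946 CPM in Cap-L and at 22.9 to 25.7 CPM in Cap-L+2D (log2 fold change 5.14), and rose by 4.63 in the buccal part to 27.3 to 28.7 CPM. Des (desmin, an intermediate filament of smooth and of skeletal muscle) rose by 2.67 and 3.76. Lmod1, an actin nucleator, rose by 2.00 in the lingual part and Tpm2, a tropomyosin, by 2.23 in the buccal part. Myl9, the regulatory light chain of smooth muscle myosin, rose by 1.75 and 0.91. Of 4 regulators of the serum response factor pathway, 1 was called higher on each side: Myocd, at a mean of 0.227 CPM in Cap-L and 0.4995 CPM in Cap-L+2D, and 0.222 and 0.640 CPM in the buccal part. The fresh levels of Myocd were not far above 3 counts, which correspond to 0.0764 to 0.146 CPM. Srf itself had log2 fold changes of 0.28 and 0.44, under the limit of 0.5. Of 10 cytoskeletal genes that respond to serum response factor or YAP, 6 were called higher in the lingual and 8 in the buccal part, and 0 lower on either side. Ccn2 (connective tissue growth factor) rose from a mean of 42.0 to 190 CPM in the lingual part and from 16.5 to 158 CPM in the buccal part. Ankrd1, a muscle and YAP-responsive gene, stood at 1 count over all 3 Cap-L libraries and at 0.912 to 1.31 CPM in Cap-L+2D, and rose from a mean of 0.889 to 19.0 CPM in the buccal part. Of 10 matrix genes of myofibroblasts, 7 were called higher in the lingual and 5 in the buccal part, with 0 lower: Lox, which cross-links collagen, rose by 2.63 in the lingual part, and Itga11, a collagen receptor, by 1.63 in the buccal part.

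Markers of skeletal muscle moved with the contractile genes. All 10 were called higher after culture on both sides, and their summed level went from 20.8 to 22.2 CPM in Cap-L to 362 to 389 CPM in Cap-L+2D, and from 262 to 277.5 CPM in Cap-B to 4520 to 4772 CPM in Cap-B+2D. Actc1 had means of 4.90 and 125 CPM in the lingual part and of 86.7 and 1587 CPM in the buccal part. Myf5 was at or under 3 counts in all Cap-W and Cap-L libraries. The ratio of Acta2 to Actc1 was 2.29 ± 0.252 in Cap-L, 3.35 ± 0.0724 in Cap-L+2D, 0.961 ± 0.0349 in Cap-B and 0.685 ± 0.0259 in Cap-B+2D (SD, n = 3), and 15.8 ± 9.77 in Bell-W. With culture the ratio rose on the lingual side and fell on the buccal side. Over the 6 groups of parts its mean ran from 0.507 in Bell-B to 3.35 in Cap-L+2D, and it was 2.89 ± 1.27 in Cap-W. Actc1 means in the parts ran from 4.90 to 1587 CPM. Over the 24 libraries Pearson's r of log2 CPM between Acta2 and Actc1 was 0.909, a description only, since the libraries share groups. Cnn1 went the other way between the sides: its level was lower in Cap-B+2D, the group with the highest skeletal muscle sum, and higher in Cap-L+2D. The part of muscle cells in the contractile levels was not tested.

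**Figure D3:**
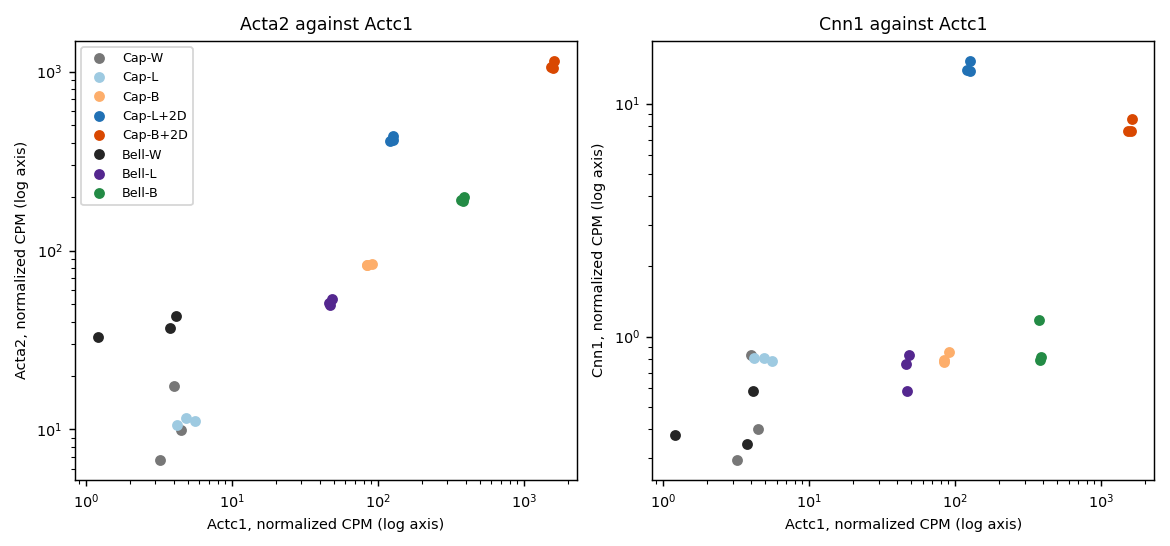
Acta2 (left) and Cnn1 (right) against the muscle actin Actc1, all in normalized CPM on log axes; each point is 1 of the 24 libraries, coloured by group. Acta2 climbs with Actc1 across the parts except between Cap-L+2D and Bell-B. Its means there are 420 and 194 CPM, although Actc1 is higher in Bell-B. Cnn1 stays between 0.583 and 1.18 CPM in the fresh parts over Actc1 means of 4.90 to 382 CPM and stands at 13.8 to 15.3 CPM in Cap-L+2D.

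The pericyte genes, at chr1:169483070-169523382 (Rgs5, plus strand), chr17:32339794-32385826 (Notch3, minus), chr9:56772317-56807154 (Cspg4, plus), chr18:61178222-61218133 (Pdgfrb, plus) and chr6:142510563-142517340 (Kcnj8, minus) of GRCm39, did not move as a block after culture. Rgs5, a regulator of G-protein signals and a common pericyte marker, was lower on both sides. Its libraries stood at 54.5, 55.3 and 54.9 CPM in Cap-L and at 24.3, 23.5 and 23.0 CPM in Cap-L+2D, and at 16.7, 19.0 and 17.3 CPM in Cap-B and at 6.29, 5.54 and 4.87 CPM in Cap-B+2D. The groups did not overlap, and the log2 fold changes were -1.21 (SE 0.0495, edgeR adjusted p = 6.78e-17) and -1.68 (SE 0.0850, adjusted p = 5.85e-18). Kcnj8, a potassium channel subunit of pericytes, rose only in the lingual part, from 1.43, 1.56 and 1.62 CPM to 15.8, 14.8 and 15.8 CPM (log2 fold change 3.33, SE 0.102, adjusted p = 1.92e-19). In the buccal part its libraries overlapped, at 7.18, 6.40 and 6.19 CPM before and 5.98, 6.58 and 5.54 CPM after (log2 fold change -0.15, adjusted p = 0.166). Cspg4, the proteoglycan NG2, rose by 1.06 in the lingual part (SE 0.0460, adjusted p = 2.45e-16; means 53.7 and 111 CPM), and its value of 0.45 in the buccal part was not called. Pdgfrb, the receptor that recruits pericytes, had log2 fold changes of 0.21 and 0.37, and Notch3 of 0.07 and 0.21, all under the limit of 0.5. Both were abundant in every library, between 225 and 442 CPM for Pdgfrb and 145 and 254 CPM for Notch3.

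Other pericyte genes also split. Of 9 on the list, 7 passed the low-count filter in the lingual part, where 2 were called higher and 1 lower, and 8 in the buccal part, where 2 were called higher and 3 lower. Abcc9, the partner subunit of Kcnj8, rose by 0.82 in the lingual part and had a log2 fold change of -0.26, not called, in the buccal part. Anpep, a membrane peptidase, rose by 0.98 in the lingual part. Ndufa4l2, a mitochondrial protein rich in pericytes, fell by 2.95 on the log2 scale in the lingual part and by 3.05 in the buccal part, and Cox4i2, another mitochondrial subunit, fell by 1.28 in the buccal part. Vtn was also called higher in the buccal part, but it was at 0 in all Cap-B libraries and at 0.0316 to 0.110 CPM in Cap-B+2D, near the level of 3 counts, and no fold is given. Of 11 recruitment signals and Notch targets, 8 were called higher and 0 lower in the lingual part and 7 higher and 1 lower in the buccal part, with Angpt2, an angiopoietin of sprouting vessels, rising by 3.58 and 2.53. Pdgfb, the endothelial ligand of Pdgfrb, rose by 0.57 in the lingual part, and its 0.22 in the buccal part was not called. Jag1, a ligand of Notch3, had a log2 fold change of 0.03 in the lingual part and fell by 0.59 in the buccal part.

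Endothelial markers moved differently on the 2 sides. In the lingual part 1 of 10 was called higher and 3 lower, with a sum of 578 to 589 CPM before and 479 to 487 CPM after, and Pecam1 was at means of 71.9 and 72.6 CPM. In the buccal part all 10 were called lower, with sums of 510.2 to 519 and 201 to 207 CPM, and Pecam1 fell by 1.33 on the log2 scale from 70.2 to 28.3 CPM. The ratio of Rgs5 to Pecam1 was 0.764 ± 0.0210 in Cap-L and 0.325 ± 0.00849 in Cap-L+2D, and 0.251 ± 0.0185 in Cap-B and 0.197 ± 0.0274 in Cap-B+2D (SD, n = 3). The ratio of Pdgfrb to Pecam1 was 4.66 ± 0.169 and 5.32 ± 0.269 on the lingual side and 4.54 ± 0.102 and 14.8 ± 0.607 on the buccal side. Kcnj8 over Pecam1 was higher after culture on both sides. It was 0.0214 ± 0.00162 in Cap-L, 0.213 ± 0.0108 in Cap-L+2D, 0.0939 ± 0.00805 in Cap-B and 0.213 ± 0.0189 in Cap-B+2D. Abcc9 over Pecam1 had means of 0.279 and 0.484 on the lingual side and 0.336 and 0.705 on the buccal side. Other cell types moved with culture too: all 6 erythroid markers were called lower on both sides (sums of at least 1533 CPM in the fresh parts and at most 26.5 CPM after culture), macrophage markers were called higher (8 of 8 lingual, 6 of 8 buccal), and 9 of 10 epithelial markers were called lower and 1 higher in Cap-B+2D, with Shh at 0 there, against 5 lower and 3 higher in Cap-L+2D. Their part in the changes of the pericyte genes was not tested.

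**Figure D4:**
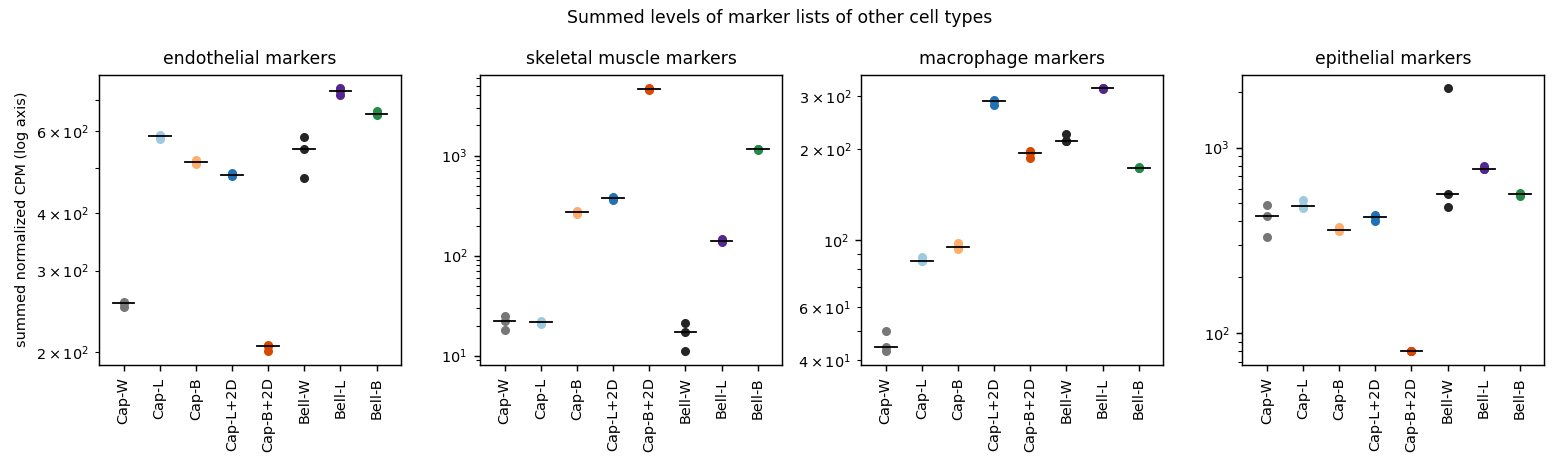
Summed normalized CPM (log axis) of 10 endothelial, 10 skeletal muscle, 8 macrophage and 10 epithelial markers in the 8 groups; points are the 3 libraries and bars their median. Cap-B+2D has the lowest endothelial sum, 201 to 207 CPM, and the highest skeletal muscle sum, 4520 to 4772 CPM.

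Lingual and buccal parts differed before culture. At the cap stage 5 of the 10 genes were called (4 higher and 1 lower in the buccal part) against 17.5% of 20653 genes tested (10.4% higher and 7.1% lower). Acta2 was higher in the buccal part by 2.93 on the log2 scale (SE 0.0545, edgeR adjusted p = 8.47e-18), with the library values given above, 10.6 to 11.6 against 82.9 to 83.9 CPM. Myh11 was at 6.01, 5.76 and 5.33 CPM in Cap-L and 9.48, 8.91 and 8.76 CPM in Cap-B (log2 fold change 0.69, SE 0.0920, adjusted p = 7.10e-06). Tagln was called at 0.92 (SE 0.330, adjusted p = 0.0327), but its libraries overlapped at 0.424 to 0.536 and 0.467 to 1.17 CPM, and the call was lost in DESeq2 (adjusted p = 0.0731) and in 4 of the 6 fits without 1 library. Rgs5 was lower in the buccal part by 1.61 on the log2 scale (SE 0.0576, adjusted p = 7.47e-14), and Kcnj8 was higher by 2.12 (SE 0.131, adjusted p = 2.18e-10). The pair of pericyte markers therefore lay in opposite directions between the same parts. Cnn1, Mylk, Notch3, Cspg4 and Pdgfrb had log2 fold changes of at most 0.16 in size and were not called. All 10 skeletal muscle markers and 7 of 12 other contractile genes, Des, Synpo2 and Tpm1 foremost, were called higher in Cap-B, while the 10 endothelial markers had a median log2 fold change of -0.20 and sums of 578 to 589 CPM in Cap-L and 510.2 to 519 CPM in Cap-B. Glial markers were also called higher in Cap-B (6 of 6), and 7 of 9 epithelial and 5 of 5 cartilage markers tested were called lower. The part of these cell types was not tested.

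At the bell stage 2 of the 10 were called, both higher in the buccal part, against 12.9% of 21181 genes (6% higher and 6.88% lower). Acta2 was at 53.7, 49.9 and 51.1 CPM in Bell-L and 193, 198 and 190 CPM in Bell-B, a log2 fold change of 1.91 (SE 0.0359, edgeR adjusted p = 2.74e-35). Notch3, the receptor of mural cells, was at 160, 145 and 151 CPM in Bell-L and 226, 207 and 219 CPM in Bell-B. Its log2 fold change of 0.52 (SE 0.0353, adjusted p = 5.30e-16) lay just over the limit and fell to 0.48 without the second Bell-L library and 0.49 without the first Bell-B library. Myh11 at -0.37 (adjusted p = 0.000302) and Tagln at -0.46 (adjusted p = 0.0970) were not called. Both leaned to the lingual part without overlap of libraries, the reverse of their direction at the cap stage. Kcnj8 (0.36), Cnn1 (0.36), Pdgfrb (0.22), Cspg4 (0.20) and Mylk (0.02) were not called either. Rgs5, at 59.9, 62.9 and 60.1 CPM in Bell-L and 60.4, 67.3 and 61.4 CPM in Bell-B, overlapped (log2 fold change 0.05, adjusted p = 0.402). All 10 skeletal muscle markers were again called higher in the buccal part. So were 4 of 6 glial markers and 2 of the 5 cartilage markers tested. Called lower there were 5 of 8 macrophage, 5 of 10 epithelial and 1 of 10 endothelial markers. The part of these cell types was not tested.

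After culture 8 of the 10 were called between the sides (3 higher and 5 lower in the buccal part), against 25.1% of 21195 genes (12.5% in each direction). Acta2 remained higher in the buccal part by 1.36 (SE 0.0398, edgeR adjusted p = 7.19e-20). Myh11 was higher by 0.61 (adjusted p = 3.11e-07) and Tagln by 0.57 (adjusted p = 0.00101), the latter not called with 24 libraries in 1 fit or without the third Cap-L+2D library. In contrast, Cnn1 was lower in the buccal part by 0.87 on the log2 scale (SE 0.0791, adjusted p = 8.16e-10) and Mylk by 0.55 (SE 0.0397, adjusted p = 9.44e-12). Thus the contractile genes did not share a direction between the cultured sides. Of the pericyte genes, Rgs5 was lower in the buccal part by 2.08, Kcnj8 by 1.37 and Cspg4 by 0.57, and Notch3 and Pdgfrb, at 0.30 and 0.11, were not called. In the same comparison all 10 skeletal muscle markers were called higher in the buccal part (median log2 fold change 3.64), while 9 of 10 endothelial, 9 of 10 epithelial and 5 of 8 macrophage markers were called lower. Their part in these differences was not tested.

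**Figure D5:**
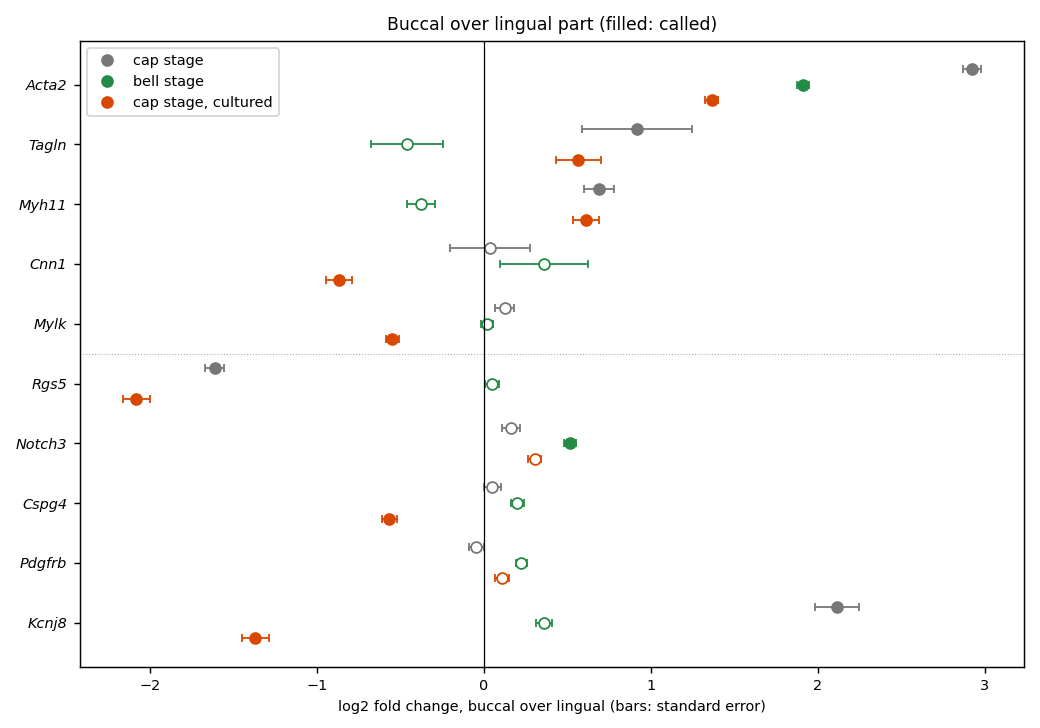
Log2 fold change of buccal over lingual parts at the cap stage (grey), at the bell stage (green) and after culture of cap-stage parts (orange); bars are standard errors and filled points are called differences. Acta2 is to the right of 0 in all 3 settings (2.93, 1.91 and 1.36), Rgs5 is to the left at the cap stage and after culture, and Kcnj8 lies at 2.12 before and -1.37 after culture.

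The difference between the sides was itself tested for change with culture and with stage (an interaction term over 12 libraries, called at an adjusted p under 0.05). With culture 7 of the 10 were called, against 35.5% of 22098 genes (16% with a positive and 19.5% with a negative term). Kcnj8 gave the greatest value of the set, -3.49 on the log2 scale (SE 0.150, edgeR adjusted p = 8.40e-18): its buccal excess in CPM at the cap stage became a lingual excess. Over Pecam1, the mean ratio of Kcnj8 after culture was 0.213 in both parts. The buccal excess of Acta2 shrank by 1.56 (SE 0.0717, adjusted p = 3.72e-17). Cspg4 gave -0.62, Mylk -0.68, Cnn1 -0.90 and Rgs5 -0.47, and Pdgfrb 0.15 (adjusted p = 0.0491), the last lost in 8 of the 12 fits without 1 library. With all 24 libraries in 1 fit the calls of Cnn1 (adjusted p = 0.0510), Rgs5 (0.191) and Pdgfrb (0.197) were lost. With stage 7 of the 10 were called too, against 32.5% of 21931 genes (14.5% positive and 18% negative): Kcnj8 -1.76, Tagln -1.38, Myh11 -1.07 and Acta2 -1.02 were lower, and Rgs5 1.65, Notch3 0.35 and Pdgfrb 0.26 higher. The call of Notch3 was lost with 24 libraries in 1 fit (adjusted p = 0.0691).

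From the cap to the bell stage Kcnj8 had the largest fold of the 10 in undivided germs and in both parts. In undivided germs 4 of the 10 were called higher and 0 lower, against 14.5% of 20940 genes (10.3% higher and 4.21% lower). Kcnj8 was at 0.668, 4.71 and 1.66 CPM in Cap-W and 39.0, 44.8 and 41.2 CPM in Bell-W, a log2 fold change of 4.06 (SE 0.550, edgeR adjusted p = 0.00287). Acta2 rose by 1.73 (SE 0.311, adjusted p = 0.00875) from 17.5, 6.78 and 9.93 CPM to 37.1, 32.8 and 43.3 CPM. Mylk rose by 1.47 (adjusted p = 0.00355), and Myh11 by 1.14 (adjusted p = 0.0226), a call lost in 4 of the 6 fits without 1 library. Rgs5 was high and scattered in both, at 140.4, 88.3 and 94.4 CPM in Cap-W and 147, 122 and 94.8 CPM in Bell-W, and was not called (log2 fold change 0.17). Tagln at 1.40 (adjusted p = 0.0892) was not called, though its libraries did not overlap. It passed with all 24 libraries in 1 edgeR fit (adjusted p = 0.00157). Cspg4 at 0.69 (adjusted p = 0.0650) was not called, but passed with DESeq2 (adjusted p = 0.0165). In the same germs 9 of 10 endothelial and 8 of 8 macrophage markers were called higher, 5 of the 7 other pericyte genes tested rose, Abcc9 by 2.12, and skeletal muscle markers summed to 18.0 to 24.7 CPM in Cap-W and 11.0 to 21.4 CPM in Bell-W. Actc1 was at means of 3.90 CPM in Cap-W and 3.04 CPM in Bell-W. The part of these cell types in the changes was not tested. Without the third Bell-W library, which was rich in epithelial markers, the count of called genes was again 4. Over the 6 fits without 1 library, that of the first Cap-W library included, the count was 3 to 4.

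In the parts Kcnj8 rose on both sides, by different amounts (the stage interaction given above). It rose by 4.27 (SE 0.0941, edgeR adjusted p = 7.69e-22) in the lingual part, to 30.8, 30.1 and 27.7 CPM, and by 2.52 (SE 0.0695, adjusted p = 1.18e-24) in the buccal part, to 38.6, 37.1 and 37.8 CPM. Of the 10 genes, 6 were called in the lingual part (5 higher and 1 lower, against 20% of all genes, 14.2% higher and 5.78% lower) and 3 in the buccal part (3 higher, against 18.7%, 12% higher and 6.73% lower). Acta2 rose by 2.22 and 1.21. Rgs5 rose by 1.83 (SE 0.0600, adjusted p = 1.38e-22) in the buccal part, and its 0.16 in the lingual part was not called. In the lingual part Tagln rose by 1.52, Myh11 by 0.96 and Mylk by 0.58, and Pdgfrb fell by 0.54 on the log2 scale. In the buccal part these had values of 0.15, -0.09, 0.48 and -0.26, none called. Cnn1 was not called at either side (-0.13 and 0.20), nor in undivided germs (-0.19). All 10 skeletal muscle markers were called higher at the bell stage in both parts. Of 10 endothelial markers, 2 rose from Cap-L to Bell-L (median log2 fold change 0.29) and 1 from Cap-B to Bell-B (median 0.35). On either side 0 endothelial markers were called lower. Macrophage markers rose too (8 of 8 lingual, 7 of 8 buccal), as did 3 of 7 lingual and 5 of 8 buccal other pericyte genes tested. The part of these cell types in the changes between stages was not tested.

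Cultured parts were also set against bell-stage parts, whose 2 later days passed in the embryo. These comparisons share the cultured libraries with those above. Of the 10 genes, 8 were called in the lingual part (6 higher and 2 lower in culture, against 31.2% of all genes, 14.4% higher and 16.8% lower) and 7 in the buccal part (5 higher and 2 lower, against 31.8%, 15.5% higher and 16.3% lower). Cnn1 was higher in culture by 4.29 (SE 0.132, edgeR adjusted p = 4.00e-19) and 3.07 (SE 0.140, adjusted p = 3.39e-19), Acta2 by 3.03 and 2.48, and Tagln by 0.79 and 1.81. Kcnj8 was lower in culture by 0.93 and 2.66 on the log2 scale and Rgs5 by 1.37 and 3.50. Pdgfrb was higher by 0.75 and 0.63, Mylk and Cspg4 by 0.86 each in the lingual part, and Myh11 by 0.54 in the buccal part, under 0.5 without the second Bell-B library. Of the other pericyte genes, 7 of the 8 tested were lower in cultured than in bell-stage buccal parts and 0 higher, and Abcc9 was lower by 1.63 on the log2 scale. All 10 endothelial markers were lower in that comparison, and 5 of 10 in the lingual one. All 10 skeletal muscle markers were higher in culture in both (median log2 fold change 1.39 lingual and 2.01 buccal), and erythroid markers were lower (6 of 6 lingual, 5 of 6 buccal), as were 5 of 6 glial markers on each side. The part of these cell types was not tested.

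The order of levels set the genes apart. Per kilobase of exon, Pdgfrb was the most abundant of the 10 in Cap-W, Cap-L, Cap-B, Bell-W and Bell-L (41.9 to 61.1 CPM per kilobase), and Acta2 led in Cap-L+2D, Cap-B+2D and Bell-B (191, 495 and 88.2). Cnn1 was last or next to last in every uncultured group, at 0.159 to 0.340 CPM per kilobase. Acta2 ran in the order Cap-B+2D, Cap-L+2D, Bell-B, Cap-B, Bell-L, Bell-W, Cap-W and Cap-L, and only Cap-W and Cap-L overlapped among neighbours. Rgs5 ran in nearly the opposite order at its ends, from Bell-W and Cap-W, which overlapped, down through Bell-B and Bell-L, which also overlapped, to Cap-L, Cap-L+2D, Cap-B and Cap-B+2D. For both genes the mean of the undivided germs lay outside those of the parts at the bell stage, Rgs5 above (mean 121 against 61.0 and 63.0 CPM) and Acta2 below (37.7 against 51.6 and 194 CPM).

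Among 14397 genes with an average log2 CPM of at least 2, those most like Acta2 over the 24 libraries were Antxr1 (Pearson's r of log2 CPM 0.981), Mgp (0.980), Msrb3 (0.979), Lsp1 (0.971) and Slit3 (0.967). The genes most like Rgs5 were Tpgs2 (0.952), Ankrd45 (0.952), Jakmip2 (0.944), Ctnnb1 (0.942) and Slc25a13 (0.933). None of the 10 was among them, and within the set r with Acta2 was 0.867 for Tagln, 0.804 for Cnn1, 0.738 for Myh11 and -0.763 for Rgs5. These values describe 8 groups of 3 libraries and were not tested.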

How the data were processed

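Dental mesenchyme of 8 groups (3 libraries each) was sequenced as bulk mRNA. The authors deposited 1 table of raw read counts per gene, which per the file header was made with featureCounts 2.0.0 on GRCm39 with the Ensembl 107 annotation, paired, over exons and without strand. The submitters' processing notes also name Trimmomatic 0.39, Bowtie 1.2.3 and Subread 2.0.3, whereas the study's methods name another trimmer, aligner and library kit, so the aligner is uncertain. Symbols were taken from GENCODE M39 for 56017 of 56748 genes. Counts were tested in R 4.3.3 with edgeR 4.0.16 (TMM, filterByExpr, quasi-likelihood F-test, Benjamini-Hochberg over all genes tested), with a call needing an adjusted p under 0.05 and a log2 change of more than 0.5 in size, or the adjusted p alone for interactions. Each side was fitted over its 9 libraries for culture and stage, each interaction over 12, and undivided germs and sides over 6, so comparisons share libraries. Depth was 20581720 to 39266497 counts, and 3 counts correspond to 0.0764 to 0.146 CPM. The procedure was tested on simulated data. Alternatives were DESeq2 1.42.0, RLE scaling, other filters and limits, 1 fit over 24 libraries, a replicate block and leaving out each library. The named genes are the 10 listed, the 3 called genes with the greatest change of a list, and Actg2, Myl9, Des, Abcc9, Myocd, Srf, Pdgfb, Pecam1 and Jag1, plus the 5 genes most correlated with Acta2 and with Rgs5 (log2 of CPM + 0.5). Among the genes so named, 1 was left out and is not reported here. The members and all lists were chosen with earlier results of these data known. Motifs were searched on both strands, and a CATTCC match did not overlap the CArG box.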

Additional observations from a re-analysis of the deposited data

Results flagged for a closer look

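The difference between buccal and lingual parts changed between conditions for these genes, by a test of the interaction over 12 libraries (edgeR quasi-likelihood, Benjamini-Hochberg adjusted p; values are changes of the log2 fold change of buccal over lingual). With culture of the cap-stage parts it changed by -3.49 for Kcnj8 (adjusted p = 8.40e-18), -1.56 for Acta2 (3.72e-17), -0.90 for Cnn1 (0.00463), -0.68 for Mylk (2.55e-09), -0.62 for Cspg4 (6.93e-09), -0.47 for Rgs5 (0.000414) and 0.15 for Pdgfrb (0.0491). From the cap to the bell stage it changed by -1.76 for Kcnj8 (adjusted p = 8.30e-12), -1.38 for Tagln (0.00698), -1.07 for Myh11 (6.38e-08), -1.02 for Acta2 (2.51e-13), 1.65 for Rgs5 (2.87e-17), 0.35 for Notch3 (0.000240) and 0.26 for Pdgfrb (0.000351).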

How the results depend on the processing

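Over 7 to 9 alternatives in each of the 12 comparisons, 95 of 104 counts of called genes stayed within 1.5 times the value reported, and 983 of 1038 fold changes kept their direction and side of the threshold, none reversing. With an absolute log2 fold change over 1, the count fell to 3 for the sides at the cap stage, 1 at the bell stage, 3 for the cultured sides, 3 for lingual bell over cap and 3 for lingual cultured over bell. Without a limit on the fold it was 6 for the sides at the bell stage, 9 for buccal cultured over cap and 6 for buccal bell over cap. In 1 fit over 24 libraries the side by culture interaction called 4. Leaving out 1 library at a time gave 1 to 2 called genes for the sides at the bell stage (1 without the second Bell-L or the first Bell-B library), 4 to 5 at the cap stage and 7 to 8 after culture. Fits without 1 library reversed 8 fold changes, none called. The ranges given here run over all alternative fits, those without 1 library included, except the changed fold limits. Cnn1 reversed for the sides at the cap stage (-0.0047 to 0.063, without the first Cap-B library) and for undivided bell over cap (-0.48 to 0.31, first Cap-W). It also reversed for lingual bell over cap (-0.24 to 0.0016, second Bell-L) and for buccal bell over cap (-0.012 to 0.30, first Bell-B). Rgs5 and Mylk reversed for the sides at the bell stage (-0.0023 to 0.079 and -0.0067 to 0.038, other Bell-B libraries). Pdgfrb reversed for undivided bell over cap (-0.047 to 0.12, second Bell-W) and Tagln for buccal bell over cap (-0.19 to 0.35, last Cap-B). The replicate numbers share only a label: none of the 10 comparisons had every same-numbered correlation of deviations over 0.1 (range -0.080 to 0.090 over 23402 genes). A replicate block changed 1 call, Cspg4 in undivided germs (adjusted p = 0.0497), so 5 in place of 4 were called there. The causes were not tested. Cnn1 and Tagln rest on 9 to 36 and 3 to 46 counts in uncultured libraries, too few to show small differences.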
